A study of Mus musculus with 7 samples.

Results

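The genes Cd3e, Cd3g, Cd8a, Cd8b1, Cd7, Itgae, Gzma, Gzmb, Ccl5 and Cd160 are markers of the T cells that live within the intestinal epithelium. They were taken by name as known marker genes, and they are 10 of the 38293 genes in the count table. The filter on low counts was passed by 14869 genes, among them all 10 markers. Scraped ileal mucosa, a mix of epithelium and lamina propria from which muscle was left behind, was sequenced from individually housed male C57BL/6NRJ mice that were 8 weeks old at the start. Acclimatization lasted 1 week, with the high fat control diet given to every mouse, and the diets compared were then fed for 2 weeks. Both were AIN93-G diets low in calcium, with 40% of the energy from fat. The normal cys group (n = 4) received 0.38% total cystine, of which 0.3% was added, and the low cys group (n = 3) received 0.08% because the added cystine had been replaced by alanine. The normal cys libraries, labelled X17SI4, X32SI4, SI9 and X1SI4, are called normal cys 1 to 4 here, and X23SI4, X26SI4 and X10SI4 are called low cys 1 to 3. Each library came from a different mouse. The total count was 19712355, 21410743, 21140505 and 22412703 in normal cys 1 to 4 and 21942518, 15708368 and 14888760 in low cys 1 to 3. The 10 genes together held between 2748 and 6222 counts in a library, which was between 0.0141% and 0.0316% of its counts.

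Intraepithelial T cells sit between enterocytes, and most of those in the small intestine carry CD8. Natural intraepithelial T cells often bear a gamma delta receptor or CD8 as a pair of alpha chains, while T cells that were primed in lymphoid tissue bear an alpha beta receptor and CD8 as an alpha and a beta chain. They are held in the epithelium by the integrin chain that Itgae encodes, which binds E-cadherin on enterocytes, and they store granzymes at high levels.

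The estimate was lower on the low cystine diet for 9 of the 10 genes, Cd160 being the exception, while 48.8% of all genes tested had a lower estimate. The same 9 genes were lower with TMM normalization, with DESeq2's size factors and with library totals alone, although the last of these raised the median over all genes by 0.145 on the log2 scale. The median log2 fold change of the 10 genes was -0.25 with TMM and -0.12 with library totals alone, against 0.0072 and 0.15 over all genes tested. No gene of the 10 had an unadjusted p under 0.05 in edgeR, DESeq2 or limma-voom (0 of 10), a threshold that 5.49% of the genes tested passed in edgeR. The libraries of the diets overlapped for each of the 10 genes (0 of 10 separated), where 6.83% of the genes tested had groups that did not overlap. Over the whole table, 0 genes (0%) had an adjusted p under 0.05 in edgeR and 0 in limma-voom, 817 had an unadjusted p under 0.05 in edgeR, and DESeq2 gave 16 genes with an adjusted p under 0.05. That unadjusted count was 1763 without normal cys 1, 403 without normal cys 3, 258 without low cys 1 and 522 without low cys 3, and 1 gene had an adjusted p under 0.05 in edgeR without normal cys 2. None of the 10 was among those 16, since the smallest adjusted p of the 10 genes was 0.843 in DESeq2 and 0.794 in edgeR (Benjamini-Hochberg). Exact permutation p-values of single genes, two-sided on log2 CPM, ran from 0.114 for Cd3g to 0.886 for Gzmb and Cd160, and the smallest that 3 and 4 libraries allow is 0.0286. In scrapings of mixed cells, fewer T cells and less RNA per T cell cannot be told apart.

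Added together, the CPM of the 10 genes (counts relative to the TMM-normalized library size) was 325, 187, 199 and 172 CPM in normal cys 1 to 4 and 126, 213 and 177 CPM in low cys 1 to 3. Normal cys 1 had the highest sum and low cys 1 the lowest, and the remaining libraries of both groups lay between them and were mixed. The mean sum was 221 ± 70.4 CPM (SD, n = 4) in normal cys against 172 ± 43.8 CPM (SD, n = 3) in low cys, a difference of -48.5 CPM. This difference was -13.7 CPM without normal cys 1 and -23.8 CPM without low cys 1. Of the difference with all libraries, Gzma and Gzmb held -29.8 CPM and the other 8 genes -18.7 CPM, a split chosen after the values were seen. Normal cys 1 was the highest of the 7 libraries for 7 of the 10 genes, and low cys 1 was the lowest for 8. Low cys 2 was among the highest 2 libraries for 8 of the 10 genes. Without normal cys 1, 7 of the 10 estimates were lower on the low cystine diet and their median was -0.093, and without low cys 1 these values were 7 and -0.075. Without normal cys 3, and also without low cys 2, all 10 estimates were lower, in the latter case with a median of -0.43, and Cd8a passed an unadjusted p of 0.05 (adjusted p = 0.714 in edgeR).

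**Figure D1:**
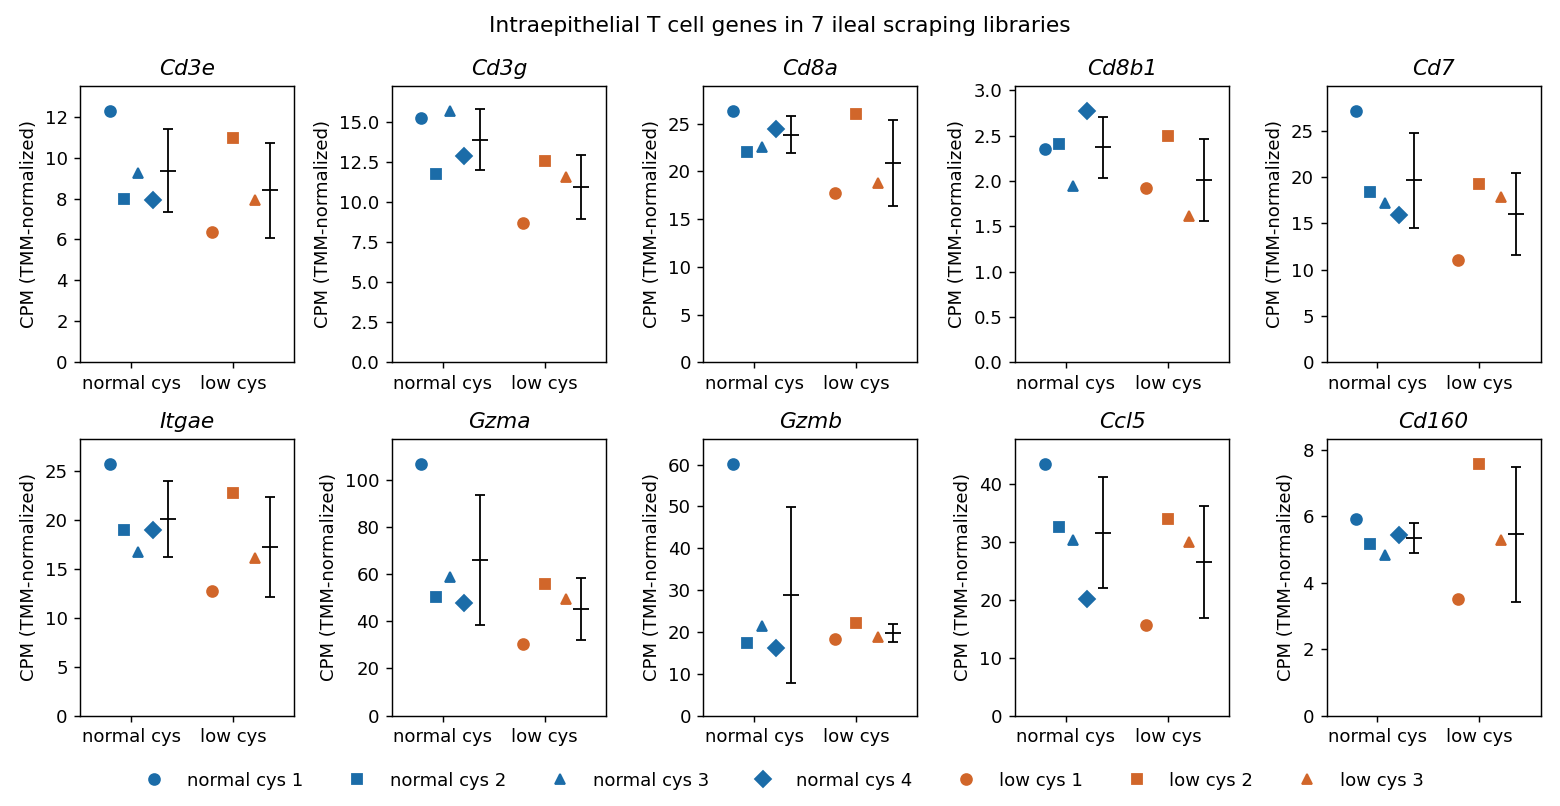
Level of each of the 10 genes in CPM (vertical axis, from 0) in the 4 normal cys libraries (blue) and the 3 low cys libraries (orange), with a symbol for each library; the black line and bar are the group mean and SD. The groups overlap in each panel, and normal cys 1 is the highest point for 7 genes, by the largest ratio to the next library for Gzmb (2.701 times).

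Cd3e and Cd3g encode signalling chains of the CD3 complex, without which no T cell receptor reaches the cell surface. Cd3e was at 12.3, 7.99, 9.25 and 7.93 CPM in normal cys 1 to 4 and 6.37, 10.9 and 7.93 CPM in low cys 1 to 3. Cd3g was at 15.3, 11.7, 15.7 and 12.9 CPM in normal cys 1 to 4 and 8.69, 12.6 and 11.5 CPM in low cys 1 to 3. For Cd3e normal cys 1 and low cys 2 were the highest libraries and low cys 1 the lowest, while for Cd3g low cys 1 and low cys 3 lay below each normal cys library and low cys 2 lay among them. The log2 fold change of Cd3g was -0.35 (standard error 0.187, 95% interval -0.77 to 0.076), the smallest p of the 10 genes in edgeR (unadjusted p = 0.0967, adjusted p = 0.794, exact permutation test on log2 CPM, two-sided, p = 0.114). That of Cd3e was -0.16 (standard error 0.243, 95% interval -0.71 to 0.39), with adjusted p = 0.868 in edgeR. It became 0.00015 without normal cys 1 and 0.020 without low cys 1. Both intervals include 0.

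Cd8a and Cd8b1 encode the alpha and beta chains of the CD8 coreceptor, and the alpha chain alone can form a dimer that binds the thymus leukaemia antigen on enterocytes. Cd8a was at 26.3, 21.98, 22.6 and 24.5 CPM in normal cys 1 to 4 and 17.7, 26.1 and 18.8 CPM in low cys 1 to 3. Cd8b1 was at 2.35, 2.41, 1.95 and 2.77 CPM in normal cys 1 to 4 and 1.92, 2.4998 and 1.61 CPM in low cys 1 to 3, with between 25 and 58 counts in a library. Low cys 1 and low cys 3 were the lowest 2 libraries for each chain, and low cys 2 was within the range of the normal cys libraries for each. The log2 fold change was -0.19 (standard error 0.163, 95% interval -0.56 to 0.17) for Cd8a and -0.24 (standard error 0.278, 95% interval -0.87 to 0.39) for Cd8b1, with adjusted p-values of 0.804 and 0.839 in edgeR. Per kilobase of exon, the ratio of Cd8b1 to Cd8a was 0.205, 0.2498, 0.199 and 0.258 in normal cys 1 to 4 and 0.248, 0.221 and 0.203 in low cys 1 to 3, so the alpha chain was between 3.88 and 5.02 times the level of the beta chain. The log2 ratio was -2.14 ± 0.191 (SD, n = 4) in normal cys against -2.16 ± 0.146 (SD, n = 3) in low cys, and it overlapped between the diets (exact permutation test, two-sided, p = 0.857).

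Itgae encodes the alpha E integrin chain, Cd7 a small immunoglobulin-type surface protein of T cells, and Cd160 a receptor that binds the herpesvirus entry mediator. Itgae was at 25.7, 18.99, 16.8 and 19.01 CPM in normal cys 1 to 4 and 12.8, 22.8 and 16.1 CPM in low cys 1 to 3. Cd7 was at 27.1, 18.3, 17.1 and 15.9 CPM in normal cys 1 to 4 and 10.98, 19.2 and 17.9 CPM in low cys 1 to 3. Cd160 was at 5.904, 5.18, 4.84 and 5.45 CPM in normal cys 1 to 4 and 3.51, 7.56 and 5.28 CPM in low cys 1 to 3. For these 3 genes low cys 1 was the lowest library, and low cys 2 was above at least 3 of the normal cys libraries. The log2 fold change in edgeR was -0.23 (standard error 0.224, 95% interval -0.73 to 0.28) for Itgae (adjusted p = 0.821), -0.30 (standard error 0.248, 95% interval -0.86 to 0.26) for Cd7 (adjusted p = 0.804) and 0.023 (standard error 0.269, 95% interval -0.58 to 0.63) for Cd160 (adjusted p = 0.986). Cd160 was the gene with the closest normal cys libraries next to Cd8a, with a coefficient of variation of 8.44% against 37.3% in the low cys libraries. Its estimate was -0.089 in limma-voom and ran from -0.26 to 0.28 as each library was left out in turn.

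Gzma and Gzmb encode granule proteases that cytotoxic T cells release onto target cells, granzyme A cutting after basic residues and granzyme B after aspartate. Gzma was at 107, 50.4, 58.8 and 47.9 CPM in normal cys 1 to 4 and 30.3, 55.7 and 49.4 CPM in low cys 1 to 3. Gzmb was at 60.1, 17.4, 21.3 and 16.1 CPM in normal cys 1 to 4 and 18.3, 22.2 and 18.7 CPM in low cys 1 to 3. Normal cys 1 stood apart from the other libraries for both genes, and low cys 1 was the lowest library for Gzma but not for Gzmb. Normal cys 1 was 2.04 times the mean of the other normal cys libraries for Gzma and 3.28 times for Gzmb. The group means of Gzma were 65.97 ± 27.6 CPM (SD, n = 4) in normal cys against 45.1 ± 13.2 CPM (SD, n = 3) in low cys, and its log2 fold change was -0.55 (standard error 0.318, 95% interval -1.27 to 0.17), with adjusted p = 0.794 in edgeR. For Gzmb they were 28.8 ± 21.01 CPM (SD, n = 4) in normal cys against 19.8 ± 2.17 CPM (SD, n = 3) in low cys, the log2 fold change being -0.54 (standard error 0.455, 95% interval -1.58 to 0.50) and adjusted p = 0.804 in edgeR. Without normal cys 1 the estimate was -0.22 for Gzma (adjusted p = 0.708) and 0.11 for Gzmb (adjusted p = 0.802) in edgeR. The sign of the Gzmb estimate turned when that library was left out, and the other normal cys libraries had a mean of 18.3 ± 2.71 CPM (SD, n = 3).

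Per kilobase, the ratio of Gzma to Gzmb was 2.87, 4.65, 4.44 and 4.77 in normal cys 1 to 4 and 2.66, 4.03 and 4.25 in low cys 1 to 3. It was lowest in low cys 1 and normal cys 1, which were the libraries with the lowest and the highest Gzma, and the other libraries were close to each other. The log2 ratio was 2.04 ± 0.347 (SD, n = 4) in normal cys against 1.84 ± 0.369 (SD, n = 3) in low cys (exact permutation test, two-sided, p = 0.457). The summed CPM of Gzma and Gzmb over that of the CD3 chains Cd3d, Cd3e, Cd3g and Cd247, a ratio chosen after the values were seen, was 4.82, 2.66, 2.62 and 2.39 in normal cys 1 to 4 and 2.47, 2.54 and 2.89 in low cys 1 to 3. By this ratio normal cys 1 was again above the other 6 libraries, and low cys 1 lay within them. Ccl5 encodes a chemokine that effector CD8 T cells make, and it was at 43.3, 32.6, 30.3 and 20.02 CPM in normal cys 1 to 4 and 15.7, 33.9 and 29.8 CPM in low cys 1 to 3. Low cys 1 and normal cys 4 were its lowest libraries, so each diet group held both high and low values. Its log2 fold change was -0.26 (standard error 0.308, 95% interval -0.96 to 0.44), with adjusted p = 0.839 in edgeR, and 0.025 without low cys 1.

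**Figure D2:**
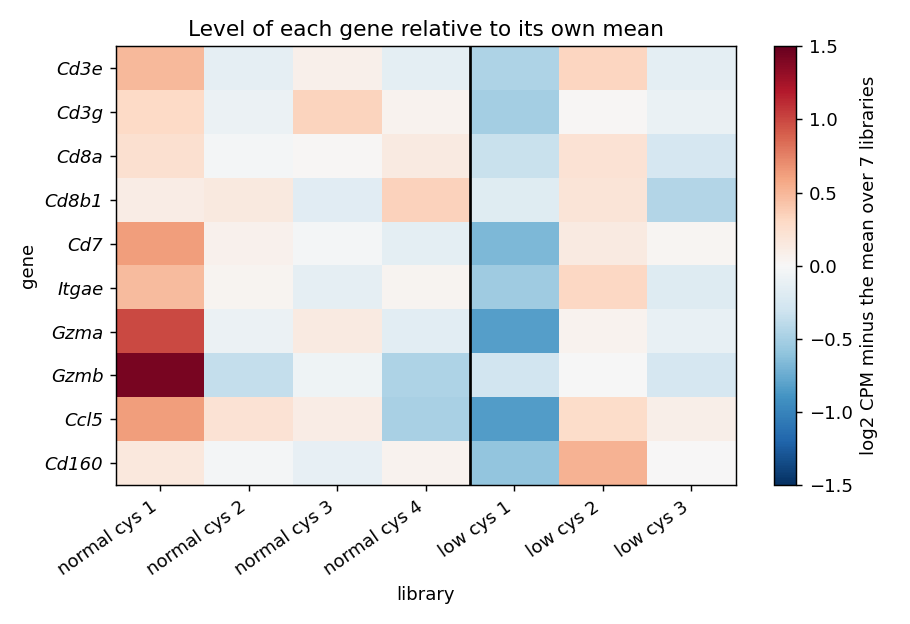
Level of each gene (down) in each library (across) as log2 CPM minus that gene's mean over the 7 libraries, with red above and blue below the mean; a black line separates the normal cys from the low cys libraries. Normal cys 1 is red for each of the 10 genes, low cys 1 is blue for each, and the strongest red is Gzmb in normal cys 1 (1.43).

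Per kilobase of exon, the scale on which different genes can be compared, the order of the mean levels over the 7 libraries began with Gzma. Gzma was at 64.96 CPM per kilobase, Ccl5 at 30.6, Gzmb at 17.6, Cd7 at 15.9 and Cd3g at 11.8. They were followed by Cd8a at 7.21 CPM per kilobase, Cd3e at 6.24, Itgae at 4.12, Cd160 at 2.04 and Cd8b1 at 1.56. Gzmb was above Cd7 in 2 of the 7 libraries, and their difference of 1.61 CPM per kilobase was smaller than its spread between libraries (SD 7.77). Cd8a was above Cd3e and Cd160 above Cd8b1 in 6 of the 7 libraries, and the other neighbours in this order kept it in all 7. Over all 7 libraries the effector genes also varied most. Their highest to lowest ratio was 3.72 for Gzmb, 3.53 for Gzma and 2.76 for Ccl5, against 1.49 for Cd8a. The highest library was normal cys 1 for each of these genes. In the other libraries Gzmb ran from 16.1 to 22.2 CPM, Gzma from 30.3 to 58.8 CPM and Cd8a from 17.7 to 26.1 CPM. The ratios of Gzmb and Gzma thus rested largely on normal cys 1.

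**Figure D3:**
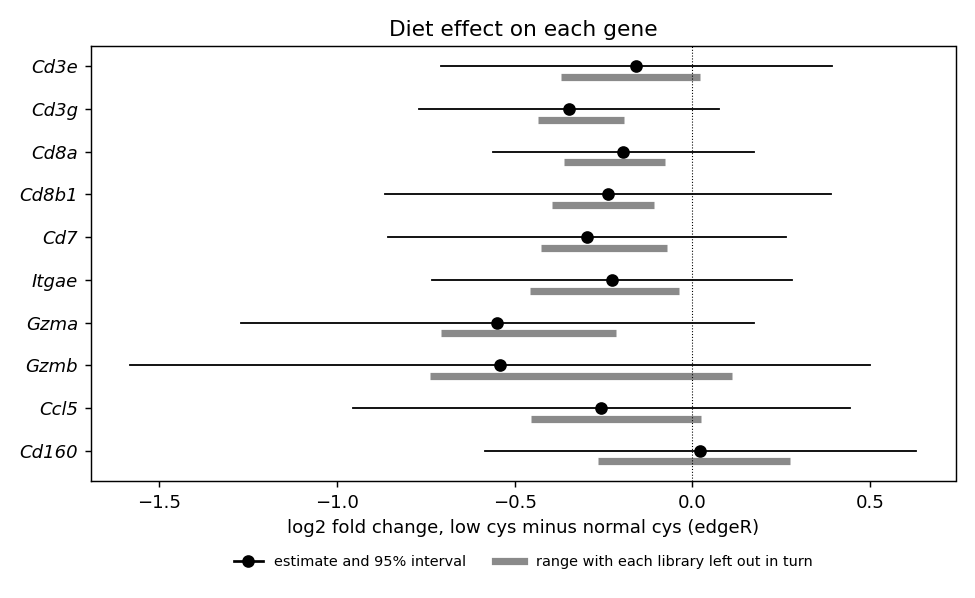
Log2 fold change of each gene between the diets (horizontal axis, low cys minus normal cys, edgeR) with its 95% interval in black and, in grey, the range of estimates when each library is left out in turn. Each interval includes 0, and the grey range crosses 0 for Cd3e, Gzmb, Ccl5 and Cd160.

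The T cell receptor chains and the signalling proteins behind them are shared by T cells of many kinds. Of the 20 tested genes in this list of 22, 17 had a lower estimate on the low cystine diet with TMM and 15 with library totals alone. An unadjusted p under 0.05 was reached by 0 genes, and the median log2 fold change was -0.21 (-0.080 with library totals alone). Without low cys 1 these values were 13 of 22 and -0.091, and without low cys 2 they were 19 of 21 and -0.39, with 2 genes at an unadjusted p under 0.05. Their summed CPM was 144, 139, 118 and 120.3 CPM in normal cys 1 to 4 and 104, 143 and 110.3 CPM in low cys 1 to 3, most of all from the phosphatase gene Ptpn22. As for the 10 markers, low cys 1 was the lowest library of this sum and normal cys 1 the highest, with low cys 2 close to it. Without Ptpn22, 21.9% of the mean sum, low cys 1 was still the lowest library but low cys 2 was the highest. That sum, taken after the values were seen, was 109, 108, 95.05 and 97.4 CPM in normal cys 1 to 4. In low cys 1 to 3 it was 72.4, 115 and 89.2 CPM. The constant genes of the gamma chain, Tcrg-C1, Tcrg-C2 and Tcrg-C, had a summed CPM of 18.9, 13.9, 16.2 and 19.6 CPM in normal cys 1 to 4 and 10.6, 17.6 and 14.8 CPM in low cys 1 to 3. Those of the alpha and beta chains, Trac, Trbc1 and Trbc2, had a summed CPM of 22.9, 24.5, 19.8 and 22.2 CPM in normal cys 1 to 4 and 13.8, 25.2 and 19.7 CPM in low cys 1 to 3. For each kind of chain low cys 1 was the lowest library and the groups overlapped, and genes of both kinds were detected in each library. The delta chain gene Trdc had no row of that name in the count table. Trbc2, Trbc1, Tcrg-C1 and Tcrg-C2 share 44.01%, 40.5%, 34.2% and 25.4% of their 50-base stretches with sister genes, so counts within a chain family are uncertain. The largest estimates in this list were -0.61 (adjusted p = 0.818 in edgeR, standard error 0.588) for Ubash3a, -0.44 (adjusted p = 0.821 in edgeR, standard error 0.438) for Txk and -0.42 (adjusted p = 0.799 in edgeR, standard error 0.317) for Tcrg-C1.

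Conventional T cells carry costimulatory and lymph node homing receptors that natural intraepithelial T cells hold at low levels. In this list 7 of 12 tested genes had a lower estimate with TMM and 3 with library totals alone, and the median log2 fold change was -0.040, and leaving out a library in turn moved it from -0.42 without low cys 2 to 0.22 without low cys 1 (0.10 with library totals alone). Cd27, a costimulatory receptor of the tumour necrosis factor receptor family, was at 2.14, 1.32, 1.95 and 1.82 CPM in normal cys 1 to 4 and 0.694, 1.31 and 0.902 CPM in low cys 1 to 3. Each low cys library was below each normal cys library, and the log2 fold change was -0.90 (adjusted p = 0.794 in edgeR, standard error 0.354). It was the gene of this list with an unadjusted p under 0.05. The list had 0 such genes with library totals alone and without normal cys 1, normal cys 3, low cys 1 or low cys 3, and 2 without low cys 2. Estimates for S1pr1, which encodes a receptor for exit from tissue, and Cd28 were 0.57 (adjusted p = 0.857 in edgeR, standard error 0.776) and 0.46 (adjusted p = 0.818 in edgeR, standard error 0.447), and Thy1 was the most abundant gene, at 5.31 CPM. Summed, the list was at 26.3, 32.7, 30.1 and 17.6 CPM in normal cys 1 to 4 and 20.3, 38.2 and 18.2 CPM in low cys 1 to 3, where low cys 2 was highest and normal cys 4 lowest.

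Among the other cytotoxic genes, 9 of 17 could be tested, and 4 were lower and 5 higher in low cys (4 lower also with library totals alone). The median log2 fold change was 0.040, and leaving out a library in turn moved it from -0.12 without normal cys 2 to 0.20 without normal cys 1. This median was 0.18 with library totals alone and -0.19 without a filter on low counts, where 6 of 11 were lower. The granzyme genes Gzmd, Gzme, Gzmf, Gzmg and Gzmn and the inhibitor gene Serpinb9b had 0 counts in each library. Ctsw, which encodes a cathepsin of cytotoxic lymphocytes, was at 10.8, 11.1, 12.7 and 9.89 CPM in normal cys 1 to 4 and 5.75, 9.75 and 8.12 CPM in low cys 1 to 3. With TMM each low cys library was below each normal cys library, at the closest 9.75 CPM in low cys 2 against 9.89 CPM in normal cys 4. The log2 fold change was -0.50 (adjusted p = 0.794 in edgeR, standard error 0.2098), and -0.31 without low cys 1. Ctsw alone in this list had an unadjusted p under 0.05 in edgeR, and 0 genes had it without normal cys 2, normal cys 3, low cys 1 or low cys 3. In limma-voom, and with a filter of 10 counts or more per library, 2 genes had it. Serpinb9, which encodes an inhibitor of granzyme B, was at 2.404, 1.68, 1.58 and 1.34 CPM in normal cys 1 to 4 and 2.69, 2.87 and 2.51 CPM in low cys 1 to 3. Here each low cys library was above each normal cys library, and the log2 fold change was 0.62 (adjusted p = 0.794 in edgeR, standard error 0.286). The perforin gene Prf1, chosen after its values were seen, was at 0.681 CPM on average, and had -0.33 (adjusted p = 0.873 in edgeR, standard error 0.537), while Gzmk had 0.55 (adjusted p = 0.799 in edgeR, standard error 0.423). The list was summed at 156, 97.3, 123 and 117 CPM in normal cys 1 to 4 and 156, 131 and 126 CPM in low cys 1 to 3, and Ctsc, which many cell types express, supplied 75.4% of its mean; without Ctsc the sum, taken after the values were seen, was 38.6, 30.4, 37.4 and 25.1 CPM in normal cys 1 to 4 and 24.7, 38.1 and 28.4 CPM in low cys 1 to 3.

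Receptors for entry into the epithelium and for its cytokines showed no common direction. Of 20 genes tested, 9 had a lower estimate with TMM and 5 with library totals alone, and 0 had an unadjusted p under 0.05. The median log2 fold change was 0.046, and leaving out a library in turn moved it from -0.21 without low cys 2 to 0.14 without low cys 3. With library totals alone this median was 0.19. Itgb7, whose product pairs with that of Itgae, was at 14.8, 11.6, 11.3 and 9.08 CPM in normal cys 1 to 4 and 8.49, 13.7 and 9.67 CPM in low cys 1 to 3. Its highest and lowest libraries were normal cys 1 and low cys 1, as for Itgae, and the groups overlapped, its log2 fold change being -0.14 (adjusted p = 0.874 in edgeR, standard error 0.228). The gene list's largest estimates were 0.65 (adjusted p = 0.794 in edgeR, standard error 0.292) for Gpr171, -0.46 (adjusted p = 0.794 in edgeR, standard error 0.316) for Ptprcap and 0.24 (adjusted p = 0.872 in edgeR, standard error 0.376) for Cxcr3, and Ptprc was its most abundant gene. The Cxcr3 estimate was 0.49 without low cys 1 and 0.042 without low cys 2. Of the natural killer type receptors, 7 of 14 were lower with TMM and 5 with library totals alone (median 0.0084), and of the other chemokines and cytokines 7 of 8 were lower with TMM and 6 with library totals alone (median -0.57), with 0 unadjusted p-values under 0.05 in either list. As each library was left out, the median of the natural killer type receptors ran from -0.23 without normal cys 4 to 0.20 without normal cys 1, and that of the chemokines and cytokines from -0.78 without low cys 2 to -0.11 without normal cys 3, where 5 of 7 were lower. The counts of 0 became 1 for the entry receptors with library totals alone, limma-voom or the stricter filter (10 counts or more per library), and without normal cys 1, normal cys 4 or low cys 3. They became 1 for the natural killer type receptors without normal cys 4 or low cys 2, and 1 for the chemokines and cytokines with limma-voom and without normal cys 2 or low cys 3. With the stricter filter the median of the natural killer type receptors was -0.25, where 6 of 8 were lower. That of the chemokines and cytokines was -0.20, where 4 of 5 were lower. With library totals alone these medians were 0.14 and -0.42. Cd96 and Tnfsf10 were the most abundant genes of these lists, at 5.51 and 77.4 CPM. Among the transcription factors, 11 of 17 were lower with TMM and 6 with library totals alone (median -0.097, and with a library left out from -0.16 without low cys 2 to 0.0041 without low cys 3, and 0.037 with library totals alone).

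Bcl11b, which encodes a factor of T cell commitment, was at 19.8, 20.6, 18.8 and 24.6 CPM in normal cys 1 to 4 and 27.9, 24.5 and 28.7 CPM in low cys 1 to 3. Sox13, a factor gene of gamma delta T cells that epithelial cells also express, was at 131, 134, 139 and 139 CPM in normal cys 1 to 4 and 105, 116 and 117 CPM in low cys 1 to 3. Bcl11b had a log2 fold change of 0.37 (adjusted p = 0.794 in edgeR, standard error 0.137) with overlapping groups, and for Sox13, with -0.27 (adjusted p = 0.794 in edgeR, standard error 0.109), each low cys library was below each normal cys library, and both had an unadjusted p under 0.05 and missed the threshold after adjustment over all genes. The list had 0 genes at an unadjusted p under 0.05 without normal cys 3, low cys 1 or low cys 3. Zbtb7b was the most abundant gene of the list at 273 CPM.

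Enterocytes hold intraepithelial T cells by E-cadherin, feed them interleukin 15 and select gamma delta cells through butyrophilin-like proteins. Of 17 such epithelial genes tested, 11 had a lower estimate with TMM and 7 with library totals alone, 0 had an unadjusted p under 0.05, and the median was -0.11, with a range over left-out libraries from -0.17 without low cys 2 to -0.059 without low cys 1 and 0.031 with library totals alone. An unadjusted p under 0.05 was reached by 2 genes without normal cys 1 and by 1 gene each without normal cys 2, without low cys 2 and without a filter on low counts. Il15 was at 14.7, 18.1, 29.8 and 47.9 CPM in normal cys 1 to 4 and 12.8, 20.6 and 16.2 CPM in low cys 1 to 3. Btnl2, a butyrophilin-like gene, was at 201, 168, 229 and 219 CPM in normal cys 1 to 4 and 99.2, 179.8 and 172 CPM in low cys 1 to 3. Low cys 1 was the lowest library for both genes, and the other low cys libraries were within the range of the normal cys libraries. The log2 fold change was -0.74 (adjusted p = 0.794 in edgeR, standard error 0.393) for Il15, -0.44 (adjusted p = 0.794 in edgeR, standard error 0.216) for Btnl2 and 0.44 (adjusted p = 0.804 in edgeR, standard error 0.374) for Tgfb1, and Epcam was the most abundant gene of the list. Without low cys 1 the Btnl2 estimate was -0.20.

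Markers of other cells in the scrapings also differed between libraries. Enterocyte markers, 12 of 13 lower in low cys with TMM and with library totals alone and led by Fabp2, summed to 49435, 51742, 71848 and 70021 CPM in normal cys 1 to 4 and 29004, 47209.6 and 48459.7 CPM in low cys 1 to 3. In these sums, which used TMM, each low cys library was below each normal cys library, the closest being low cys 3 and normal cys 1. Low cys 1 was the lowest of all as for the T cell genes. An unadjusted p under 0.05 was reached by 2 genes, Apoa1 with -0.79 (adjusted p = 0.794 in edgeR, standard error 0.292) and Krt20 with -0.41 (adjusted p = 0.794 in edgeR, standard error 0.1797). Without normal cys 3 or without low cys 1, 0 genes had it, and in DESeq2 5 had it. B and plasma cell markers, 6 of 12 lower with TMM and 1 with library totals alone, led by Igj (the joining chain of immunoglobulins), summed to 118, 167, 152 and 42.9 CPM in normal cys 1 to 4 and 177, 263 and 218 CPM in low cys 1 to 3. Here each low cys library was above each normal cys library, and Igj, 69.6% of the mean sum, had 1.25 (adjusted p = 0.794 in edgeR, standard error 0.332). Without Igj, a sum taken after the values were seen, the markers were at 16.7, 92.2, 76.5 and 10.03 CPM in normal cys 1 to 4 and 53.1, 78.2 and 19.5 CPM in low cys 1 to 3 and the groups overlapped, and 0 of 12 genes of the list were lower without normal cys 2 and 10 of 12 without normal cys 4. Smooth muscle markers were higher in 7 of 7 genes, led by Myh11, and summed to 14.1, 8.54, 5.36 and 3.15 CPM in normal cys 1 to 4 and 6.65, 47.2 and 16.7 CPM in low cys 1 to 3. Low cys 2, the low cys library with the highest sum of the 10 T cell genes, was far above the others, and Des, Actg2 and Myl9 had 1.89 (adjusted p = 0.794 in edgeR, standard error 0.751), 2.11 (adjusted p = 0.794 in edgeR, standard error 0.876) and 1.68 (adjusted p = 0.794 in edgeR, standard error 0.725). Without low cys 2 these estimates were 1.16, 0.75 and 0.39, and the median of the list was 0.52 in place of 1.67, with 0 genes at an unadjusted p under 0.05. There were also 0 such genes without normal cys 2 or normal cys 3, and 8 of 8 without low cys 1. The part of these cells in the T cell values was not tested.

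Fibroblast markers, 7 of 9 higher and led by Fbln1, summed to 83.2, 110.2, 191 and 151 CPM in normal cys 1 to 4 and 72.6, 93.3 and 135 CPM in low cys 1 to 3. Fbln1, 74.96% of the mean sum, was among the genes with a lower estimate, at -0.75 (adjusted p = 0.794 in edgeR, standard error 0.423), and the groups overlapped in the sum. The Fbln1 estimate was -0.46 without normal cys 3. Without Fbln1, a sum taken after the values were seen, the markers were at 26.2, 22.7, 22.9 and 30.3 CPM in normal cys 1 to 4 and 34.2, 40.1 and 32.9 CPM in low cys 1 to 3, and each low cys library was above each normal cys library. Col3a1 and Dcn had 1.58 (adjusted p = 0.794 in edgeR, standard error 0.399) and 1.55 (adjusted p = 0.794 in edgeR, standard error 0.335), and Dcn had adjusted p = 0.0292 in DESeq2 and adjusted p-values from 0.373 to 0.9999 under the other alternatives. These were the 2 genes of the list with an unadjusted p under 0.05, and there were 4 without normal cys 1. Macrophage and dendritic cell markers, 2 of 13 lower with TMM (4 of 12 without normal cys 4) and 1 with library totals alone, led by Lyz2, summed to 109.9, 94.5, 93.5 and 35.97 CPM in normal cys 1 to 4 and 117, 108 and 121 CPM in low cys 1 to 3. Of the CD4 helper and regulatory T cell genes 3 of 12 could be tested, with Il10 at 0 counts, a lower estimate for 2 with TMM and 1 with library totals alone, and a sum of 6.43, 10.6, 7.097 and 3.06 CPM in normal cys 1 to 4 and 5.31, 8.37 and 5.41 CPM in low cys 1 to 3. Cd4, the most abundant of them, was at 0.942 CPM per kilobase, against 7.21 for Cd8a. Of the genes of natural killer and innate lymphoid cells, Il13, Il22, Il5 and Klra4 had 0 counts in each library. Mast cell markers, 3 of 9 tested, 2 of them lower, with Cma1 at 0 counts and led by Kit, summed to 11.6, 27.7, 22.2 and 12.1 CPM in normal cys 1 to 4 and 15.2, 14.999 and 15.7 CPM in low cys 1 to 3. Kit, 61.4% of the mean sum, had the higher estimate, 0.20 (adjusted p = 0.804 in edgeR, standard error 0.1705), and without Kit the sum, taken after the values were seen, was 2.299, 16.8, 13.7 and 1.43 CPM in normal cys 1 to 4 and 2.16, 4.75 and 5.09 CPM in low cys 1 to 3, with normal cys 2 and normal cys 3 highest. For the macrophage, helper and mast cell lists the groups overlapped in the sum, and a count of 0 in a library allows up to 3 counts of its total.

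The tested genes outside the markers whose profile lay nearest to theirs, among 13313 genes with a mean of at least 1 CPM, included Samhd1, Trac, Insl6, Znfx1, Stat3, Sh2d3c, Zswim5, Sowahb and Itgb7. Nearness was measured over the 7 libraries as the root mean square distance of centred log2 CPM from the mean of the 10 markers, and it ran from 0.0887 to 0.1204, where the median over the genes compared was 0.399. Of the markers themselves, Cd3e, Itgae and Cd7 lay within that range or nearer, at 0.0756, 0.0936 and 0.104, while Gzmb, at 0.406, was farther from the mean of the markers than the median gene, and Cd8b1 and Ccl5 were at 0.296 and 0.237. Trac and Itgb7 are T cell genes of the lists above, and the others named are in none of the lists. Samhd1, which encodes a nucleotide hydrolase, was at 138, 88.8, 101 and 99.5 CPM in normal cys 1 to 4 and 71.3, 124 and 83.97 CPM in low cys 1 to 3, highest in normal cys 1 and lowest in low cys 1.

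In GRCm38, Cd3e and Cd3g lie near each other on chromosome 9, from 44998743 to 45009590 and from 44969572 to 44980431, and Cd8a and Cd8b1 on chromosome 6, from 71373427 to 71379171 and from 71322836 to 71337477. Chromosome 11 holds Cd7 from 121036747 to 121039418, Itgae from 73090583 to 73147446 and Ccl5 from 83525778 to 83530518. Gzma is on chromosome 13 from 113093825 to 113100979, Gzmb on chromosome 14 from 56258856 to 56262260 and Cd160 on chromosome 3 from 96798763 to 96829351. Their Ensembl identifiers are ENSMUSG00000032093 for Cd3e, ENSMUSG00000002033 for Cd3g, ENSMUSG00000053977 for Cd8a, ENSMUSG00000053044 for Cd8b1, ENSMUSG00000025163 for Cd7, ENSMUSG00000005947 for Itgae, ENSMUSG00000023132 for Gzma, ENSMUSG00000015437 for Gzmb, ENSMUSG00000035042 for Ccl5 and ENSMUSG00000038304 for Cd160. All 10 are protein-coding genes, and the counts cover their exons. The study counted by a different annotation than GENCODE M21, so shares taken by GENCODE M21 need not hold for the counted exons. Cd3e, for example, has 1436 exon bases in the count table and 4080 in GENCODE M21. Genes that overlap an exon, by GENCODE M21, cover 10.8% of the exon bases of Cd7, 3.31% of Cd3e and 2.57% of Cd160. The strand setting of the counting is not given in the sources used here. Of the 50-base stretches of their transcripts, the length of a read, 6.92% in Cd7, 6.28% in Cd8b1, 2.16% in Cd3e, 0.71997% in Cd160 and 0.0815% in Cd8a also occur in another gene, and 0% in the other 5 genes.

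The promoters of Gzma and Gzmb are shown because normal cys 1 exceeded the next highest library by larger ratios for these genes than for the other 8. RefSeq promoter sequences (GRCm38.p6) were found for 6 of the 10 genes, in 7 entries, and not for Cd8b1, Cd7, Itgae and Ccl5, and the 250 bases before the RefSeq start were searched on both strands for TGTGGT (the core bound by RUNX factors), TGANTCA (AP-1), TGACGT (the core of the cAMP response element) and AGGTGT (a T-box core). These letters were found in 14.05%, 6.75%, 6.47% and 11.8% of the 32851 promoters in the table, and in 4, 1, 1 and 3 of the 7 entries. The 4 entries with TGTGGT belong to Cd160, Gzma and Gzmb, with more than 1 entry for Cd160. The Gzma window, chr13:113100982-113101231 on the minus strand, holds AGGTGT and TGTGGT, each read on the other strand, and the Gzmb window, chr14:56262335-56262584 on the minus strand, holds TGTGGT at 2 places and TGANTCA at 1 place. The sequences run 5′ to 3′ with the matches in capitals, and a match describes the letters only.
Gzma: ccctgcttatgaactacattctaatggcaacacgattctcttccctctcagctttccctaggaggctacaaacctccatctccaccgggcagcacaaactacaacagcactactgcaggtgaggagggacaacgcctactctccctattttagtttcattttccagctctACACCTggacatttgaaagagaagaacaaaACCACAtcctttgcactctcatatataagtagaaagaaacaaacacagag
Gzmb: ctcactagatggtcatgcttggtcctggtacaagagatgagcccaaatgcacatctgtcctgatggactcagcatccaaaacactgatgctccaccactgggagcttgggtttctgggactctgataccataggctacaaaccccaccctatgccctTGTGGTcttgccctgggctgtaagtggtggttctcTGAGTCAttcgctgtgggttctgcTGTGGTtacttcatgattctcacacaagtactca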

How the data were processed

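Poly(A) RNA of ileal scrapings from 7 mice was sequenced as stranded libraries. According to the submitters' processing notes and the study's methods, reads were checked with FastQC 0.11.8, trimmed with Trim Galore 0.6.5, mapped by STAR to the GRCm38 genome, and assigned to exons by featureCounts. The authors deposited raw counts per gene, which were used as they stand; the handling of reads with several places is not given in the sources used here. Genes were kept by filterByExpr of edgeR 4.0.16 (minimum count 10, minimum total count 15) and normalized by TMM. Diets were compared over all genes with the robust quasi-likelihood F-test in R 4.3.3, with Benjamini-Hochberg adjustment over the 14869 genes tested. Log2 CPM used a prior count of 2, which was also added to each count in the per-kilobase ratios. DESeq2 1.42.0 and limma-voom (limma 3.58.1) were alternatives, besides other scalings, filters and libraries left out in turn. Exact permutation tests over the 35 assignments of 3 of 7 libraries, by the absolute difference of means, used scipy 1.17.1. The fit was tested on simulated data. The biological coefficient of variation was 25.5%. Counting error in the lowest library was 3.67% of the count for Gzma and 20.0% for Cd8b1. Named genes of the other lists were the most abundant, those with an unadjusted p under 0.05, markers at 0 and, in 5 lists, the 3 largest changes among tested genes. The marker genes and lists were chosen with earlier results of these data known. No batch is named in the labels.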

Additional observations from a re-analysis of the deposited data

Results flagged for a closer look

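In the normal cys group, 3 of 69 values examined had a library far from the other 3, by Dixon's ratio of the gap to the nearest library over the whole range, where chance alone would give about 1 in 20, or 3.45 of 69, so the number is no larger than chance gives. All 3 were in normal cys 1. Gzmb was at 60.1 CPM there and between 16.1 and 21.3 CPM in the other normal cys libraries. The log2 ratio of Gzma to Gzmb per kilobase was 1.52 there and between 2.15 and 2.25 in the others. Col3a1, a fibroblast collagen gene, was at 3.08 CPM there and between 1.05 and 1.32 CPM in the others. The low cys group, with 3 libraries, was too small to examine in this way.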

How the results depend on the processing

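Of 130 estimates for the 10 genes under 13 alternatives, 123 kept their direction and 7 changed sign, with no adjusted p under 0.563 in any. The sign changed for Cd160 in limma-voom (-0.089). As each library was left out in turn, estimates ran from -0.37 to 0.020 for Cd3e, -0.74 to 0.11 for Gzmb, -0.45 to 0.025 for Ccl5 and -0.26 to 0.28 for Cd160, while those of the other 6 genes stayed below 0 but moved, from -0.44 to -0.19 for Cd3g, -0.36 to -0.078 for Cd8a, -0.40 to -0.11 for Cd8b1, -0.43 to -0.073 for Cd7, -0.46 to -0.039 for Itgae and -0.71 to -0.22 for Gzma. The number of the 10 with a higher estimate was 0 in limma-voom and ran from 0 to 3 as libraries were left out; the number with an unadjusted p under 0.05 ran from 0 to 1. Over all genes, 16 had an adjusted p under 0.05 in DESeq2, and 0 to 1 did in edgeR as libraries were left out, while 258 to 1763 had an unadjusted p under 0.05. The median log2 fold change of the 10 genes ran from -0.43 to -0.075 and their summed difference from -66.3 to -13.7 CPM. The log2 ratio of Cd8b1 to Cd8a, low cys minus normal cys, ran from -0.097 to 0.049 and that of Gzma to Gzmb from -0.37 to 0.014; with 6 libraries these tests cannot pass 0.05. Among the other named genes, Ptpn22 (0.086) and Zbtb7b (0.023) changed sign with library totals alone and Cd4 without a filter (-0.00164); Ptpn22, Cd4, Ptprc, S1pr1 and Tnfsf10 did so as libraries were left out, with ranges of -0.18 to 0.089, -0.28 to 0.42, -0.17 to 0.21, -0.20 to 1.04 and -0.090 to 0.13. The alternatives for these named genes, the medians with libraries left out and the sums without the most abundant gene were chosen after seeing the data. The cause was not tested. No paired analysis was possible because the replicate numbers only name the libraries.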
